A study of Mus musculus with 40 samples.

Results

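The comparison described here is of 4T1 cells on plastic coated with collagen IV against 4T1 cells on uncoated plastic, with no T cells added. The 4T1 line is a mouse mammary carcinoma line that grew out of a BALB/c tumour. The libraries were chosen by their labels alone: 4 libraries on collagen IV, from experiments 2 to 5, and 5 on uncoated tissue culture polystyrene, from experiments 1 to 5, which is 9 of the 40 libraries of the series. Collagen IV was applied at 250 µg/ml and uncoated wells received phosphate buffered saline. Cells were seeded and left overnight, then given interleukin 2 at 30 U/mL, which both groups shared, and lysed after another 24 h with the free cells of the same well. The other libraries were 4T1 cells alone on collagen I (4), fibronectin (5) and vitronectin (4), and 18 co-cultures of 4T1 cells with T cells from C57Bl6 spleens on the same 5 substrates. Both groups are 1 cell line in separate wells, so the comparison carries no tissue or stromal cells.

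Collagen IV is the network-forming collagen of basement membranes, the sheets on which epithelia rest and which carcinoma cells cross when they invade. Laminins form the second network of that sheet, and nidogen and perlecan link them. Epithelial cells hold on to collagen IV through integrins with the beta 1 chain and through the discoidin domain receptor DDR1, and matrix metalloproteinases can cut it. In mammary epithelium, contact with basement membrane proteins is known to change which matrix genes, proteases and growth factors the cells express.

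RNA was measured as the signal per gene, as reads for every M reads of the authors' scaled library size, in which M stands for mega (per M). The 9 libraries held 20.2 to 44.9 M assigned reads, so that 3 reads, the limit a count of 0 allows, were 0.0683 to 0.148 per M, for counting error only. The cells carried epithelial transcripts on both substrates: Epcam averaged 102 ± 14.4 per M on collagen IV and 126 ± 14.8 per M on uncoated plastic, and Cdh1 495 ± 57.2 and 477 ± 57.7 per M (SD, n = 4 and 5). Of 26 epithelial markers listed 22 passed the filter, and Krt5, Krt6a and Krt15 were among those without values. The cells also carried the mesenchymal gene Vim, at 2084 ± 148 per M on collagen IV and 2018 ± 303 per M on uncoated plastic. Of 18 T cell markers, 16 averaged under 1 per M and Cd3e, Cd2 and Cd8a had no read in any of the 9 libraries, and the summed level of the list was 3.30 to 4.33 per M on collagen IV and 2.67 to 4.77 per M on uncoated plastic. The summed levels also overlapped for B cell markers (0.114 to 0.236 and 0.0395 to 0.207 per M), myeloid markers (8.69 to 14.9 and 10.5 to 14.7), fibroblast markers (6.30 to 10.1 and 6.70 to 9.83) and endothelial and erythroid markers (0.456 to 0.618 and 0.398 to 0.790). The label descriptions mark some libraries R2 or R3 without saying what these tags mean, and the collagen IV and uncoated libraries carried the same tag only in experiment 4, so in the other 3 pairs tag and coat cannot be told apart. Deviations from the group means on the log2 scale of collagen IV and uncoated libraries of the same experiment had a correlation over genes of 0.308 to 0.775 in the 4 pairs, and the experiment was kept as a block. Values are given in the order of experiments 2 to 5 for collagen IV and 1 to 5 for uncoated plastic. The labels call the experiments biological replicates.

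On collagen IV, 4T1 cells had less RNA of several secreted and matrix genes, and fewer genes were higher than lower. The genes with the largest falls were Mmp3, a stromelysin, and Nptx1, a secreted neuronal pentraxin, at 0.322 and 0.314 times their mean uncoated level. The laminin chain genes Lama3 and Lamb3, osteopontin (Spp1) and the Notch ligand Dll4 also fell. The largest rise among genes at 5 per M or more was that of Pmp22, a membrane protein of myelin that epithelial cells also make, followed by endothelin 1 (Edn1), Wnt9a and galectin 9 (Lgals9). Most differences were small, and 10 of the genes that rose and 31 of those that fell moved by more than 0.5 on the log2 scale. The 10 include 6 predicted genes with nearly the same values in every library (Gm9343 and Gm21032 to Gm21036). They do not count as 6 separate genes.

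When limma was fitted to all 22 cultures without T cells, with substrate and experiment as terms, 294 of 13777 genes tested (2.13%) passed an adjusted p of 0.05. Of these, 76 (0.552% of the genes tested) were higher on collagen IV and 218 (1.58%) lower, with median log2 differences of 0.33 and −0.292, against 0.0049 over all genes tested. The direction was the same in 4 of 4 experiments for 281 of the 294. In the pairs of experiments 2, 3, 4 and 5 the genes that rose had median differences of 0.222, 0.407, 0.364 and 0.290, and those that fell −0.120, −0.364, −0.341 and −0.296. These genes were called from a fit that holds the same pairs, and experiment 2 gave the smallest medians in both directions. In 92 of the 294 the 4 collagen IV libraries lay wholly above or below the 5 uncoated libraries, and over all genes tested this held for 2.1% (0.69% above and 1.41% below). With the library tag added to the block, 74 genes passed (0.537%), 31 higher and 43 lower, 61 of them among the 294. All 294 kept their direction, in a fit to the same libraries. Collagen IV and uncoated libraries then shared a block only in experiment 4. In experiment 2 the uncoated library stood alone in its block and carried no weight. In experiments 3 and 5 the contrast ran through the other coats. Without the experiment block 4 genes passed (0.029%), Nptx1, Mmp3, Csgalnact1 and Oaf, the last 2 named after their values were seen, and all 4 were lower. The number passing was 90, 87 or 135 without collagen IV replicate 3, 4 or 5, 114 or 192 without uncoated replicate 3 or 4, and 18, 46 or 148 without experiment 3, 4 or 5. Of the 75 named genes that passed, 14 kept their call with any single library or experiment left out, among them Mmp3, Nptx1, Serpine2, Cdh17, Lama3, Inpp4b and Efnb1, which fell, and Pmp22, Cavin2, Masp1, Lmo7, Ddah1 and Mcam, which rose. Of the 14, 13 (all but Efnb1) also passed with the tag in the block. Where a named call is given as lost without single replicates, the adjusted p beside it covers single libraries only. Each such call was also lost with some single experiment left out.

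**Figure D1:**
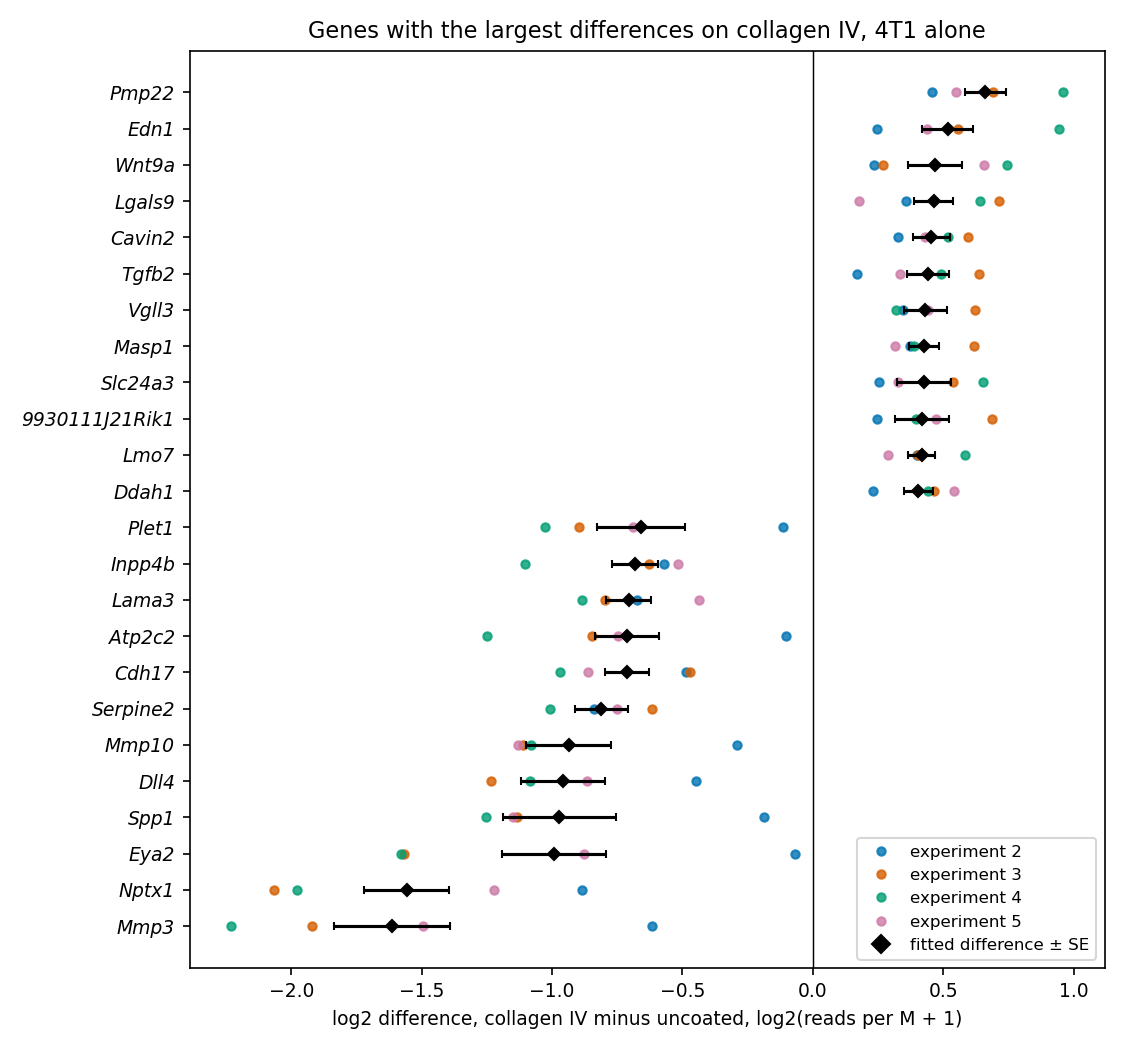
Log2 difference (collagen IV minus uncoated, log2 of reads per M plus 1) of the 12 named genes with the largest rises and the 12 with the largest falls, with 1 point per experiment and the fitted difference ± SE as a diamond. The genes were chosen for having all 4 points on the same side of 0, and in 16 of the 24, Eya2, Spp1 and Plet1 included, the point of experiment 2 lies closest to 0.

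Some laminin chain genes were lower on collagen IV. Lama3 and Lamb3 encode the alpha 3 and beta 3 chains found in laminins of epithelial basement membranes, and both fell. Lama3 had 25.0, 17.1, 11.045 and 10.4 per M on collagen IV in experiments 2 to 5, against 33.4, 40.4, 30.4, 21.2 and 14.4 per M on uncoated plastic in experiments 1 to 5. The groups overlapped, and within each experiment the collagen IV library was the lower one, with differences of −0.67, −0.80, −0.89 and −0.44 on the log2 scale. Lama3 fell by 0.71 ± 0.087 (SE, limma adjusted p = 0.00014, and 0.0175 with the tag in the block). Lamb3 (chr1:193207699-193343878, plus strand, build GRCm38) had 173, 135, 86.5 and 74.3 per M on collagen IV, against 164, 233, 191, 117 and 92.3 per M on uncoated plastic. It fell by 0.40 ± 0.059 (adjusted p = 0.00131), and its adjusted p was 0.0745 with the library tag in the block and 0.0556 without experiment 3. Lama5, Lamb1, Lamb2 and Lamc1, which encode chains of other laminins, did not pass and had log2 differences of −0.081, −0.073, −0.0016 and −0.028.

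**Figure D2:**
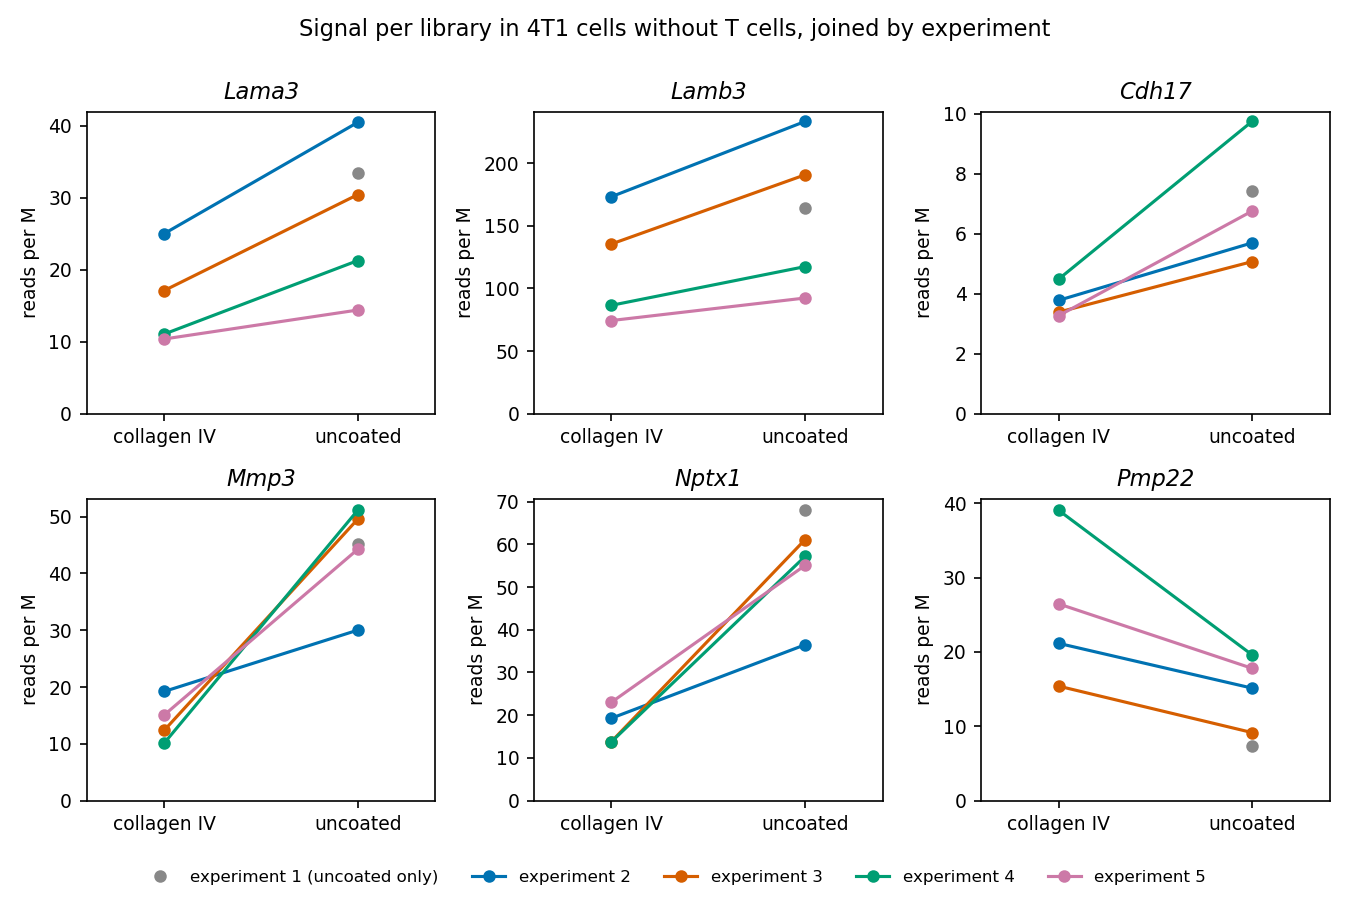
Signal in reads per M in each library, with the collagen IV and uncoated libraries of 1 experiment joined by a line and the uncoated library of experiment 1 as a single point. Every line slopes the same way within a gene: Lama3, Lamb3, Cdh17, Mmp3 and Nptx1 are lower on collagen IV and Pmp22 is higher.

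Among all 18 basement membrane genes tested, 1 rose, 4 fell and 13 did not pass (over all genes tested, 0.552% rose and 1.58% fell), with a median log2 difference of −0.0134. The list held 2 calls, both lower, with the tag in the block. Besides Lama3 and Lamb3, the genes that fell included Col18a1, which encodes the basement membrane collagen from which endostatin is cut. Its 4 collagen IV libraries had 142, 128, 125 and 136 per M, all below the 5 uncoated libraries at 161, 155, 184, 164 and 181 per M. The fall was 0.35 ± 0.064 (adjusted p = 0.00398, and 0.153 with the tag in the block or up to 0.105 with 1 experiment left out). The main collagen IV genes of the cells did not pass. Col4a1 averaged 668 ± 104 per M on collagen IV and 672 ± 113 per M on uncoated plastic (SD, n = 4 and 5), a log2 difference of 0.014 ± 0.045 (adjusted p = 0.922). Col4a2, its partner in the common collagen IV trimer, had a difference of 0.038 ± 0.052 (adjusted p = 0.783). Col4a5, a chain of a different collagen IV trimer, averaged 30.4 ± 3.53 per M on collagen IV and 23.9 ± 3.99 per M on uncoated plastic and rose by 0.25 ± 0.064 (adjusted p = 0.0377), a call it lost without collagen IV replicate 2, 3, 4 or 5 or uncoated replicate 2, 3 or 4 (adjusted p up to 0.175) and with the tag in the block (0.232).

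Of the 7 collagen receptors tested, Itga2 alone passed (14.3%, against 2.13% over all genes tested). Itga2 (chr13:114833081-114932100, minus strand) encodes the alpha 2 subunit that pairs with integrin beta 1 to bind collagens. It had 172, 161, 114 and 119 per M on collagen IV, against 209, 190.4, 179, 162 and 139.9 per M on uncoated plastic. The collagen IV library was the lower one in each of the 4 experiments although the groups overlapped, with differences of −0.15, −0.15, −0.50 and −0.23 on the log2 scale. The fall was 0.26 ± 0.055 (adjusted p = 0.0129), with an adjusted p of 0.08 with the tag in the block, and the call was lost without collagen IV replicate 4 or 5 or uncoated replicate 4 (adjusted p up to 0.0964). Itgb1, the shared beta 1 subunit, averaged 1229.7 ± 106 per M on collagen IV and 1264 ± 106 per M on uncoated plastic with a difference of 0.0013 ± 0.041 (adjusted p = 0.993). Itga1, the other common collagen-binding alpha subunit, had 2.76, 1.33, 1.78 and 2.56 per M on collagen IV, against 2.33, 3.01, 1.86, 3.2 and 3.98 per M on uncoated plastic, with a log2 difference of −0.38 ± 0.15 that did not pass (adjusted p = 0.253).

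The discoidin domain receptors are tyrosine kinases that collagens activate. Ddr1 averaged 39.0 ± 7.88 per M on collagen IV and 40.4 ± 7.11 per M on uncoated plastic (difference −0.027 ± 0.046, adjusted p = 0.833), and Ddr2 158 ± 13.9 per M on collagen IV and 141 ± 10.6 per M on uncoated plastic (0.13 ± 0.050, 0.23). Itga10 and Cd44 did not pass either, at 0.17 ± 0.12 and −0.12 ± 0.039. Of the 9 other matrix-binding integrin subunits tested, 1 passed (11.1%, against 2.13% over all genes tested). Itgb3, the beta 3 subunit that serves receptors for vitronectin, fibronectin and osteopontin, had 9.02, 4.42, 3.99 and 3.59 per M on collagen IV, against 6.33, 11.3, 5.84, 6.24 and 5.95 per M on uncoated plastic, with the highest library of each group in experiment 2. It fell by 0.48 ± 0.12 (adjusted p = 0.0309), a call lost without collagen IV replicate 3, 4 or 5 or uncoated replicate 1, 2, 3 or 5 (adjusted p up to 0.177) and with the tag in the block (0.21). Itgb3 was not called by edgeR.

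Genes of matrix breakdown moved in both directions: of 29 tested, 2 rose, 5 fell and 22 did not pass (median −0.0635; over all genes tested, 0.552% rose and 1.58% fell). The falls included Mmp3 and Mmp10, which encode stromelysins 1 and 2, while Mmp11, the stromelysin 3 gene, had a difference of 0.032 that did not pass in limma's fit (adjusted p = 0.86). Mmp3 (chr9:7445822-7455975, plus strand) had 19.2, 12.4, 10.1 and 15.1 per M on collagen IV, against 45.2, 30.0, 49.6, 51.1 and 44.3 per M on uncoated plastic. No collagen IV library reached the lowest uncoated library. It fell by 1.61 ± 0.22 on the log2 scale (adjusted p = 0.000428, and 0.0265 with the tag in the block), with differences by experiment of −0.62, −1.92, −2.23 and −1.49, the smallest in experiment 2, where the uncoated level was lowest and the collagen IV level highest.

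Mmp10 (chr9:7502352-7510240, plus strand), which lies in the same metalloproteinase cluster, had 7.38, 3.68, 4.19 and 3.89 per M on collagen IV, against 8.58, 9.25, 9.12, 9.99 and 9.69 per M on uncoated plastic. The groups did not overlap. Its fall was 0.94 ± 0.16 (adjusted p = 0.00255), with 0.0782 with the tag in the block and up to 0.0882 with 1 experiment left out. Mmp13 of the same cluster had a difference of −0.50 that did not pass in limma's fit (adjusted p = 0.086) and was called by DESeq2. The 2 promoters are shown because both genes of this cluster fell: 150 bases before the RefSeq start of each gene, 5′ to 3′ in GRCm38.p6, with the AP-1 motif TGANTCA in capitals (Mmp3 chr9:7445672-7445821, plus strand, and Mmp10 chr9:7502192-7502341, plus strand).
Mmp3: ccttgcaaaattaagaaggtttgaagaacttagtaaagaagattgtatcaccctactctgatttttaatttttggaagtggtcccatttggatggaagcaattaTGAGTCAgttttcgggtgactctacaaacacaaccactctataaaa
Mmp10: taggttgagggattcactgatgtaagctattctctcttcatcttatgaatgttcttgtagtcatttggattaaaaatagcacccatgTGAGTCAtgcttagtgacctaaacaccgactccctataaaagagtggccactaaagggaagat

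Read on both strands over the 250 bases before the start, TGANTCA occurred in 13.7% of the 153 genes that fell and have an entry among the RefSeq promoters. It occurred in 10% of the 50 with an entry that rose, and in 5.53% of the 9061 genes tested that have an entry (6.75% of all 32851 windows). These shares describe letters in a window and say nothing of what binds there. No TGANTCA lay in the windows of Lamb3 or Itga2, which also fell. Among the same genes with an entry, the TEAD motif GGAATG occurred in 13.7% of those that fell, 14% of those that rose and 12.7% of those tested.

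Mmp9 encodes the gelatinase B that cuts collagen IV. It had 354, 229.8, 227 and 125 per M on collagen IV, against 323, 461, 316, 285 and 214 per M on uncoated plastic, with the collagen IV library lower in each of the 4 experiments. Its fall was 0.51 ± 0.11 (adjusted p = 0.0138), with 0.301 with the tag in the block, and the call was lost without collagen IV replicate 4 or 5 or uncoated replicate 3 (adjusted p up to 0.0803). Serpine2, an inhibitor of thrombin and urokinase, had 4.01, 2.92, 5.57 and 7.18 per M on collagen IV, against 6.67, 7.95, 5.01, 12.2 and 12.8 per M on uncoated plastic. The groups overlapped, and each collagen IV library lay below the uncoated one of its experiment. Serpine2 fell by 0.81 ± 0.10 (adjusted p = 0.000164, and 0.0265 with the tag in the block). Plau, the urokinase gene, averaged 135 ± 39.8 per M on collagen IV and 158 ± 28.0 per M on uncoated plastic and fell by 0.28 ± 0.073 (adjusted p = 0.0429), a call lost without collagen IV replicate 3, 4 or 5 or uncoated replicate 1, 2, 3, 4 or 5 (adjusted p up to 0.193) and with the tag in the block (0.412). Plau was not called by edgeR or after quantile normalisation.

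Adamts1, a metalloproteinase that cuts proteoglycans, averaged 238 ± 70.9 per M on collagen IV and 195 ± 63.1 per M on uncoated plastic and rose by 0.34 ± 0.077 (adjusted p = 0.0187), a call lost without collagen IV replicate 3, 4 or 5 or uncoated replicate 2, 3 or 4 (adjusted p up to 0.111) and with the tag in the block (0.159). Mmp14, the membrane-bound metalloproteinase, and its inhibitor Timp2 did not pass, with differences of −0.078 ± 0.044 and 0.041 ± 0.040.

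Of 18 interstitial matrix genes tested, 1 rose and 3 fell (over all genes tested, 0.552% rose and 1.58% fell). Spp1 encodes osteopontin, a secreted ligand of integrins and CD44. It had 66.9, 35.6, 40.2 and 56.3 per M on collagen IV, against 72.1, 76.4, 79.3, 97.4 and 126 per M on uncoated plastic. The groups did not overlap, and the differences by experiment were −0.19, −1.13, −1.26 and −1.15. It fell by 0.97 ± 0.22 (adjusted p = 0.0182), with 0.232 with the tag in the block, and the call was lost without collagen IV replicate 3, 4 or 5 or uncoated replicate 3 (adjusted p up to 0.111). Ecm1, a secreted glycoprotein of basement membranes and dermis, averaged 58.1 ± 22.2 per M on collagen IV and 75.8 ± 14.6 per M on uncoated plastic and fell by 0.41 ± 0.081 (adjusted p = 0.00811), a call lost without collagen IV replicate 3 or 4 (adjusted p up to 0.0666). The tenascin C gene Tnc fell by 0.21 ± 0.053 (adjusted p = 0.0427), a call lost without collagen IV replicate 3, 4 or 5 or uncoated replicate 1, 2, 4 or 5 (adjusted p up to 0.165). With the tag in the block the adjusted p was 0.175 for Ecm1 and 0.387 for Tnc.

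Thbs1, the thrombospondin 1 gene, was the interstitial matrix gene that rose. It had 1428, 1349, 1318 and 1283 per M on collagen IV, against 1105, 1269, 1044, 1028 and 884 per M on uncoated plastic. Every collagen IV library lay above the 5 uncoated ones. The rise was 0.34 ± 0.081 (adjusted p = 0.0258), with 0.2 with the tag in the block, and was lost without collagen IV replicate 3, 4 or 5 or uncoated replicate 2, 3, 4 or 5 (adjusted p up to 0.148). Fn1 itself, the fibronectin gene, had a difference of −0.098 and did not pass (adjusted p = 0.568).

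Among 22 genes of collagen processing, 4 fell and 1 rose (over all genes tested, 0.552% rose and 1.58% fell). Bmp1, the proteinase that trims the C-terminal propeptide of fibrillar procollagens, averaged 248 ± 34.4 per M on collagen IV and 296 ± 24.6 per M on uncoated plastic and fell by 0.25 ± 0.042 (adjusted p = 0.00198, and 0.0631 without experiment 3). Adamts14, a procollagen N-proteinase, fell by 0.26 ± 0.062 (adjusted p = 0.0261), lost without collagen IV replicate 3, 4 or 5 or uncoated replicate 3 or 4 (adjusted p up to 0.155). Plod3, a lysyl hydroxylase, fell by 0.16 ± 0.036 (adjusted p = 0.0187), lost without collagen IV replicate 3 or 4 or uncoated replicate 4 or 5 (adjusted p up to 0.102). Loxl3, of the lysyl oxidase family, fell by 0.34 ± 0.089 (adjusted p = 0.047), lost without collagen IV replicate 3, 4 or 5 or uncoated replicate 1, 3, 4 or 5 (adjusted p up to 0.237), with its pair of experiment 2 at 0.037. Loxl3 was not called by edgeR. Tgm2, the transglutaminase that crosslinks matrix proteins, averaged 45.3 ± 12.5 per M on collagen IV and 32.0 ± 8.19 per M on uncoated plastic and rose by 0.38 ± 0.082 (adjusted p = 0.0152; higher in 3 of 4 experiments), lost without collagen IV replicate 3 or 4 (adjusted p up to 0.0914). With the tag in the block Tgm2 passed (adjusted p = 0.0301) and the 4 that fell did not (0.0762 for Bmp1 and up to 0.316 for Loxl3).

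Nptx1 (chr11:119538719-119547753, minus strand) fell second most. It had 19.3, 13.8, 13.8 and 23.0 per M on collagen IV, against 68.0, 36.5, 61.1, 57.2 and 55.1 per M on uncoated plastic. The highest collagen IV library lay below the lowest uncoated library. It fell by 1.56 ± 0.16 (adjusted p = 2.82e-05), with an adjusted p of 0.002 with the tag in the block. Nptx1 and Mmp3 were the 2 named genes that passed under each of the 25 alternative settings tried.

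Cdh17, the liver-intestine cadherin, had 3.78, 3.39, 4.49 and 3.27 per M on collagen IV, against 7.42, 5.7, 5.07, 9.76 and 6.76 per M on uncoated plastic. The groups did not overlap. It fell by 0.71 ± 0.085 (adjusted p = 0.000105, and 0.00197 with the tag in the block). Inpp4b, a phosphatase of membrane phosphoinositides, had 9.61, 10.6, 5.57 and 8.92 per M on collagen IV, against 13.4, 14.8, 16.9, 13.1 and 13.2 per M on uncoated plastic, also without overlap. It fell by 0.68 ± 0.087 (adjusted p = 0.000172, and 0.00307 with the tag in the block). The Notch ligand Dll4 fell by 0.96 ± 0.16 (adjusted p = 0.00218), averaging 4.83 ± 1.96 per M on collagen IV and 9.81 ± 1.17 per M on uncoated plastic, and Atp2c2, a calcium pump of the secretory pathway, by 0.71 ± 0.12 (adjusted p = 0.00228). With 1 experiment left out the adjusted p of Dll4 was up to 0.0862 and that of Atp2c2 up to 0.0833. Eya2, a transcriptional coactivator with phosphatase activity, fell by 0.99 ± 0.20 (adjusted p = 0.01), with −0.07 in experiment 2 and −0.88 to −1.58 in the others. It lost its call without collagen IV replicate 3 or 4 or uncoated replicate 3 (adjusted p up to 0.0787), and Plet1, which fell by 0.66 ± 0.17 (adjusted p = 0.0403), without collagen IV replicate 3, 4 or 5 or uncoated replicate 2, 3, 4 or 5 (adjusted p up to 0.211). With the tag in the block Dll4, Eya2 and Plet1 did not pass (adjusted p = 0.0934, 0.169 and 0.364). Plet1 was also not called by edgeR or DESeq2.

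Pmp22 (chr11:63128982-63159547, plus strand) rose most among the genes named for their rise. It had 21.2, 15.4, 39.1 and 26.5 per M on collagen IV, against 7.33, 15.1, 9.15, 19.6 and 17.8 per M on uncoated plastic. The lowest collagen IV library, of experiment 3, lay within the uncoated range, and each collagen IV library exceeded its own experiment's uncoated library, by 0.46, 0.69, 0.96 and 0.55. The rise was 0.66 ± 0.078 (adjusted p = 0.000105, and 0.002 with the tag in the block). Ddah1, which breaks down the nitric oxide synthase inhibitor asymmetric dimethylarginine, had 168, 181, 178 and 161 per M on collagen IV, against 144, 143, 131, 130.5 and 110.5 per M on uncoated plastic, without overlap, and rose by 0.40 ± 0.055 (adjusted p = 0.000352). Masp1, a serine protease of the lectin pathway of complement, had 35.8, 34.5, 38.0 and 30.2 per M on collagen IV, against 16.9, 27.4, 22.2, 28.8 and 24.1 per M on uncoated plastic, also without overlap, and rose by 0.43 ± 0.058 (adjusted p = 0.000352). Lmo7, a LIM domain protein of cell junctions and the nuclear envelope, averaged 53.9 ± 9.83 per M on collagen IV and 37.9 ± 6.06 per M on uncoated plastic and rose by 0.42 ± 0.052 (adjusted p = 0.00014). Mcam, a cell adhesion molecule of the immunoglobulin family, averaged 43.9 ± 7.82 per M on collagen IV and 35.8 ± 6.08 per M on uncoated plastic and rose by 0.27 ± 0.041 (adjusted p = 0.00143), with 4 like differences by experiment, 0.25, 0.28, 0.27 and 0.31.

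Secreted signals were among the other rises. Edn1, which encodes the precursor of endothelin 1, had 20.0, 16.6, 17.7 and 9.39 per M on collagen IV, against 7.21, 16.7, 10.977, 8.69 and 6.67 per M on uncoated plastic. It rose by 0.52 ± 0.098 (adjusted p = 0.00579), with 0.0762 with the tag in the block, and its call was lost without collagen IV replicate 4 (adjusted p up to 0.0546). The call of Edn1 was also lost without experiment 3 or 4 (adjusted p up to 0.096). Tgfb2, a transforming growth factor beta ligand, had 16.6, 16.2, 20.1 and 17.9 per M on collagen IV, against 9.48, 14.7, 10.0, 13.982 and 14.004 per M on uncoated plastic, without overlap. It rose by 0.44 ± 0.081 (adjusted p = 0.00431), with 0.0745 with the tag in the block and up to 0.114 with 1 experiment left out. Wnt9a, a Wnt ligand, rose by 0.47 ± 0.10 (adjusted p = 0.017), lost without collagen IV replicate 4 or 5 or uncoated replicate 4 or 5 (adjusted p up to 0.103) and with the tag in the block (0.16). Lgals9, a galectin, averaged 17.9 ± 2.89 per M on collagen IV and 11.9 ± 3.03 per M on uncoated plastic and rose by 0.46 ± 0.074 (adjusted p = 0.00167, and 0.0699 without experiment 3). Csf1, the macrophage colony stimulating factor, averaged 493 ± 70.1 per M on collagen IV and 402 ± 56.7 per M on uncoated plastic and rose by 0.27 ± 0.045 (adjusted p = 0.00198, and 0.0643 without experiment 3). The chemokine gene Ccl2 had 6.22, 3.59, 3.9 and 2.5 per M on collagen IV, against 0.909, 3.45, 1.23, 1.3 and 2.64 per M on uncoated plastic, and rose by 0.69 ± 0.14 (adjusted p = 0.012). The pair of experiment 5 showed no rise of Ccl2 (−0.055), and the call was lost without collagen IV replicate 3 or 4 or uncoated replicate 3 or 4 (adjusted p up to 0.091).

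YAP and TEAD form a transcription factor pair that responds to cell attachment and tension. Of 19 of their known targets tested, 3 rose and none fell in limma's fit, with a median difference of 0.0901. Over all genes tested 0.552% rose and the median was 0.0049. edgeR called 2 of the list and DESeq2 5, with Axl (−0.12 in limma's fit) and Dlc1 (0.27) added. Ctgf (Ccn2), the connective tissue growth factor gene, had 496, 344, 246 and 189 per M on collagen IV, against 274, 466, 275, 192 and 164 per M on uncoated plastic. The groups overlapped, and the collagen IV library was higher in each experiment, by 0.09, 0.32, 0.35 and 0.20. It rose by 0.24 ± 0.049 (adjusted p = 0.011, and 0.0265 with the tag in the block), a call lost without collagen IV replicate 3 or 4 (adjusted p up to 0.0818). Cyr61 (Ccn1), its relative, rose by 0.23 ± 0.060 (adjusted p = 0.042), lost without collagen IV replicate 3, 4 or 5 or uncoated replicate 1, 2 or 3 (adjusted p up to 0.208) and with the tag in the block (0.16). Cyr61 was not called by edgeR. The third was Tgfb2. Vgll3, a TEAD cofactor that was not on the list, rose by 0.43 ± 0.084 (adjusted p = 0.0074), lost without collagen IV replicate 3 (adjusted p up to 0.059) and with the tag in the block (0.256). Vgll3 also lost its call without experiment 3 or 4 (adjusted p up to 0.178).

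Among 25 focal adhesion genes 1 rose and 1 fell (over all genes tested, 0.552% rose and 1.58% fell). Cav1, the caveolin 1 gene, averaged 35.3 ± 5.14 per M on collagen IV and 27.8 ± 2.86 per M on uncoated plastic and rose by 0.29 ± 0.062 (adjusted p = 0.0158), a call lost without collagen IV replicate 3, 4 or 5 or uncoated replicate 3 (adjusted p up to 0.0903) and with the tag in the block (0.313). Cavin2, a coat protein of the same membrane pits that was not on the list, had 52.4, 63.4, 114 and 114 per M on collagen IV, against 39.7, 41.6, 41.6, 78.9 and 84.3 per M on uncoated plastic. The levels in experiments 4 and 5 were above those in the others on both substrates. Cavin2 rose by 0.45 ± 0.071 (adjusted p = 0.0016, and 0.0397 with the tag in the block). Tns4, a tensin of focal adhesions, averaged 88.0 ± 22.004 per M on collagen IV and 120.5 ± 22.3 per M on uncoated plastic and fell by 0.45 ± 0.071 (adjusted p = 0.00167, 0.0447 with the tag in the block, and up to 0.0655 with 1 experiment left out). None of 20 genes of the actin cytoskeleton and its factor SRF passed in limma's fit (median 0.0364), with 4 at an unadjusted p under 0.05 and none by edgeR or DESeq2.

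Of 22 epithelial markers, 2 fell and 1 rose (over all genes tested, 0.552% rose and 1.58% fell). Krt8 and Krt18 encode the paired keratins of simple epithelium. Krt8 averaged 658 ± 118 per M on collagen IV and 802 ± 89.1 per M on uncoated plastic and fell by 0.28 ± 0.060 (adjusted p = 0.017), and Krt18 averaged 551 ± 68.1 per M on collagen IV and 689.5 ± 67.9 per M on uncoated plastic and fell by 0.31 ± 0.071 (adjusted p = 0.0192). Krt17, a keratin of basal and stressed epithelium, had 8.5, 3.65, 6.95 and 4.09 per M on collagen IV, against 3.88, 6.84, 2.79, 4.11 and 3.55 per M on uncoated plastic, and rose by 0.38 ± 0.096 (adjusted p = 0.0407). Krt8 lost its call without collagen IV replicate 3, 4 or 5 or uncoated replicate 3 or 5 (adjusted p up to 0.106), Krt18 without collagen IV replicate 3, 4 or 5 or uncoated replicate 3 or 5 (adjusted p up to 0.109) and Krt17 without collagen IV replicate 3, 4 or 5 or uncoated replicate 1, 2, 3 or 4 (adjusted p up to 0.163). With the tag in the block Krt17 passed (adjusted p = 0.0361) and Krt8 and Krt18 did not (0.208 and 0.284). Krt19, another keratin gene, passed as higher in that block (0.28, adjusted p = 0.0451), so the list then held 2 higher and 0 lower. Of 10 mesenchymal genes, Mcam rose and none fell (10% called, against 2.13% over all genes tested).

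The epidermal growth factor receptor is a main growth signal of mammary epithelium. Of 17 genes of its ligands, receptors and feedback targets, 4 fell and none rose in limma's fit. The median was −0.115, and over all genes tested 1.58% fell. DESeq2 also called Dusp5. The number that fell was 1 with the tag in the block. Tgfa, a ligand, had 49.0, 44.1, 34.7 and 40.4 per M on collagen IV, against 62.8, 55.2, 57.5, 51.0 and 46.2 per M on uncoated plastic. It fell by 0.33 ± 0.065 (adjusted p = 0.00766), lost without collagen IV replicate 4 (adjusted p up to 0.0659) and without experiment 3 or 4 (up to 0.131). Areg, another ligand, had 32.0, 17.8, 9.42 and 10.7 per M on collagen IV, against 27.3, 33.8, 26.2, 19.2 and 15.1 per M on uncoated plastic, and fell by 0.48 ± 0.13 (adjusted p = 0.0489), lost without collagen IV replicate 3, 4 or 5 or uncoated replicate 1, 3, 4 or 5 (adjusted p up to 0.225). Neither edgeR nor DESeq2 called Areg, and it did not pass after quantile normalisation. Hbegf, the third ligand, fell by 0.25 ± 0.061 (adjusted p = 0.0327), lost without collagen IV replicate 4 or 5 or uncoated replicate 3, 4 or 5 (adjusted p up to 0.166). Etv5, an ETS transcription factor induced downstream of the receptor, had 38.4, 33.9, 32.6 and 39.5 per M on collagen IV, against 49.3, 41.3, 44.8, 41.1 and 53.9 per M on uncoated plastic. The groups did not overlap, and it fell by 0.33 ± 0.056 (adjusted p = 0.00218, 0.0265 with the tag in the block, and 0.0764 without experiment 3). Tgfa, Areg and Hbegf had adjusted p of 0.0584, 0.259 and 0.165 with the tag in the block. The receptor genes did not pass: Egfr, Erbb2 and Erbb3 had differences of 0.048, −0.055 and −0.061.

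The median interferon response gene was higher on collagen IV in 3 of the 4 experiments. Of 31 tested, 5 rose (0.552% over all genes tested) and none fell, 28 had a difference above 0, and the list's median was 0.246, against 0.0049 over all genes tested. By experiment the median was 0.221, 0.233 and 0.424 in experiments 2, 3 and 4, and −0.0600 in experiment 5. Ddx58, the gene of the RNA sensor RIG-I, had 45.6, 42.7, 46.3 and 42.7 per M on collagen IV, against 32.8, 39.8, 35.3, 36.7 and 37.3 per M on uncoated plastic, without overlap. It rose by 0.25 ± 0.044 (adjusted p = 0.00268, 0.0265 with the tag in the block, and up to 0.0667 with 1 experiment left out). The chemokine gene Cxcl10 had 6.95, 3.12, 6.11 and 3.8 per M on collagen IV, against 1.64, 3.81, 2.02, 3.48 and 3.4 per M on uncoated plastic, and rose by 0.48 ± 0.099 (adjusted p = 0.011, and 0.0228 with the tag in the block), lost without collagen IV replicate 4 (adjusted p up to 0.0844). Cxcl10 also lost its call without experiment 2, 3 or 4 (adjusted p up to 0.124). Ifit2 rose by 0.31 ± 0.068 (adjusted p = 0.017), Bst2, the virus-tethering membrane protein, by 0.30 ± 0.073 (0.0334), and Irgm1, an immunity-related GTPase, by 0.24 ± 0.063 (0.0489). Ifit2 lost its call without collagen IV replicate 3, 4 or 5 or uncoated replicate 2, 3 or 4 (adjusted p up to 0.091), Bst2 without collagen IV replicate 3, 4 or 5 or uncoated replicate 2, 3, 4 or 5 (adjusted p up to 0.216) and Irgm1 without collagen IV replicate 2, 3, 4 or 5 or uncoated replicate 1, 2, 3 or 4 (adjusted p up to 0.26). Irgm1 was not called by edgeR or after quantile normalisation. Ifit2, Bst2 and Irgm1 had adjusted p of 0.317, 0.0943 and 0.169 with the tag in the block. In that block the list held 5 higher, Ddx58 and Cxcl10 among them, and 0 lower, with a median of 0.326. Over all genes tested 0.225% were higher in that block, with a median of −0.00614. Ifit1, Isg15 and Oas1a had differences of 0.51, 0.40 and 0.41 that did not pass in limma's fit (adjusted p = 0.128, 0.095 and 0.0612), and DESeq2 called all 3, for 8 of the list in all.

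The promoters of Irgm1 and Bst2 are shown as 2 of the members that rose and whose window holds the interferon response motif (GAAA, any 2 bases, GAAA), in capitals with its overlapping repeat. They are 150 bases before the RefSeq start, 5′ to 3′ in GRCm38.p6 (Irgm1 chr11:48871421-48871570, minus strand, and Bst2 chr8:71537473-71537622, minus strand).
Irgm1: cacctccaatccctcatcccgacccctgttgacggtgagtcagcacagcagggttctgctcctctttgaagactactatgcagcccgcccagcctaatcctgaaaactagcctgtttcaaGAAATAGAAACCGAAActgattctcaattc
Bst2: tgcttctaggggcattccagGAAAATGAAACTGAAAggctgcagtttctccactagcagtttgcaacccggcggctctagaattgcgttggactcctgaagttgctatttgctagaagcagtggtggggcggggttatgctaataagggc

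Over the 250 bases before the start, on both strands, that motif occurred in 12 of 26 interferon response genes with an entry (46.2%). Among genes with an entry it occurred in 12% of the 50 that rose, 1.96% of the 153 that fell and 3.16% of the 9061 tested (2.98% of all windows). Among the other members that rose, Cxcl10 had the motif in its window, and Ddx58 and Ifit2 did not.

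Several programmes showed no gene past the threshold in limma's fit: cholesterol biosynthesis (24 tested, median −0.0357), fatty acid synthesis (16, −0.0294), immediate early genes (21, −0.0673), hypoxia and glycolysis (29, 0.0170), heat shock proteins (18, 0.0321) and cytosolic ribosomal proteins (30, 0.0144). At an unadjusted p under 0.05 they held 3, 1, 5, 6, 5 and 2 genes, edgeR called none in any of the 6, and DESeq2 called Acsl4 (fatty acid synthesis), Fosl1 (immediate early) and Slc2a1 (hypoxia and glycolysis). Of 37 cell cycle genes, Cdkn1a, the gene of the cell cycle inhibitor p21, fell, with 12.1, 7.33, 6.31 and 5.74 per M on collagen IV, against 11.6, 14.6, 10.5, 10.1 and 7.82 per M on uncoated plastic (0.43 ± 0.097, adjusted p = 0.0187), a call lost without collagen IV replicate 3, 4 or 5 or uncoated replicate 3 or 4 (adjusted p up to 0.0991). Of 29 genes of the amino acid and endoplasmic reticulum stress response, Asns, asparagine synthetase, rose by 0.19 ± 0.040 (adjusted p = 0.0108), lost without collagen IV replicate 4 (adjusted p up to 0.08). Asns also lost its call without experiment 3 or 4 (adjusted p up to 0.163). Of 22 genes of the transforming growth factor beta pathway, Ltbp3, a protein that holds the latent factor in the matrix, fell by 0.26 ± 0.058 (adjusted p = 0.0187), lost without collagen IV replicate 3, 4 or 5 or uncoated replicate 3 (adjusted p up to 0.113). None of these 3 genes passed with the tag in the block (adjusted p = 0.282, 0.119 and 0.293). Each was the only call of its list, and calls made up 2.13% of all genes tested. Of 25 inflammatory genes, Csf1 and Ccl2 rose, while Tnfaip2 and Csf3, the granulocyte colony stimulating factor gene, fell. The falls were 0.24 ± 0.060 and 0.24 ± 0.062 (adjusted p = 0.0316 and 0.0405). Csf3 was not called by edgeR. Calls made up 16% of this list, against 2.13% over all genes tested. Tnfaip2 lost its call without collagen IV replicate 3, 4 or 5 or uncoated replicate 1, 3 or 4 (adjusted p up to 0.163) and Csf3 without collagen IV replicate 3, 4 or 5 or uncoated replicate 2, 3, 4 or 5 (adjusted p up to 0.167). The block with the tag held 3 higher and 0 lower of this list: Tnfaip2 and Csf3 did not pass (adjusted p = 0.283 and 0.336), and Ccl5, a chemokine gene, joined Csf1 and Ccl2 (0.0437).

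**Figure D3:**
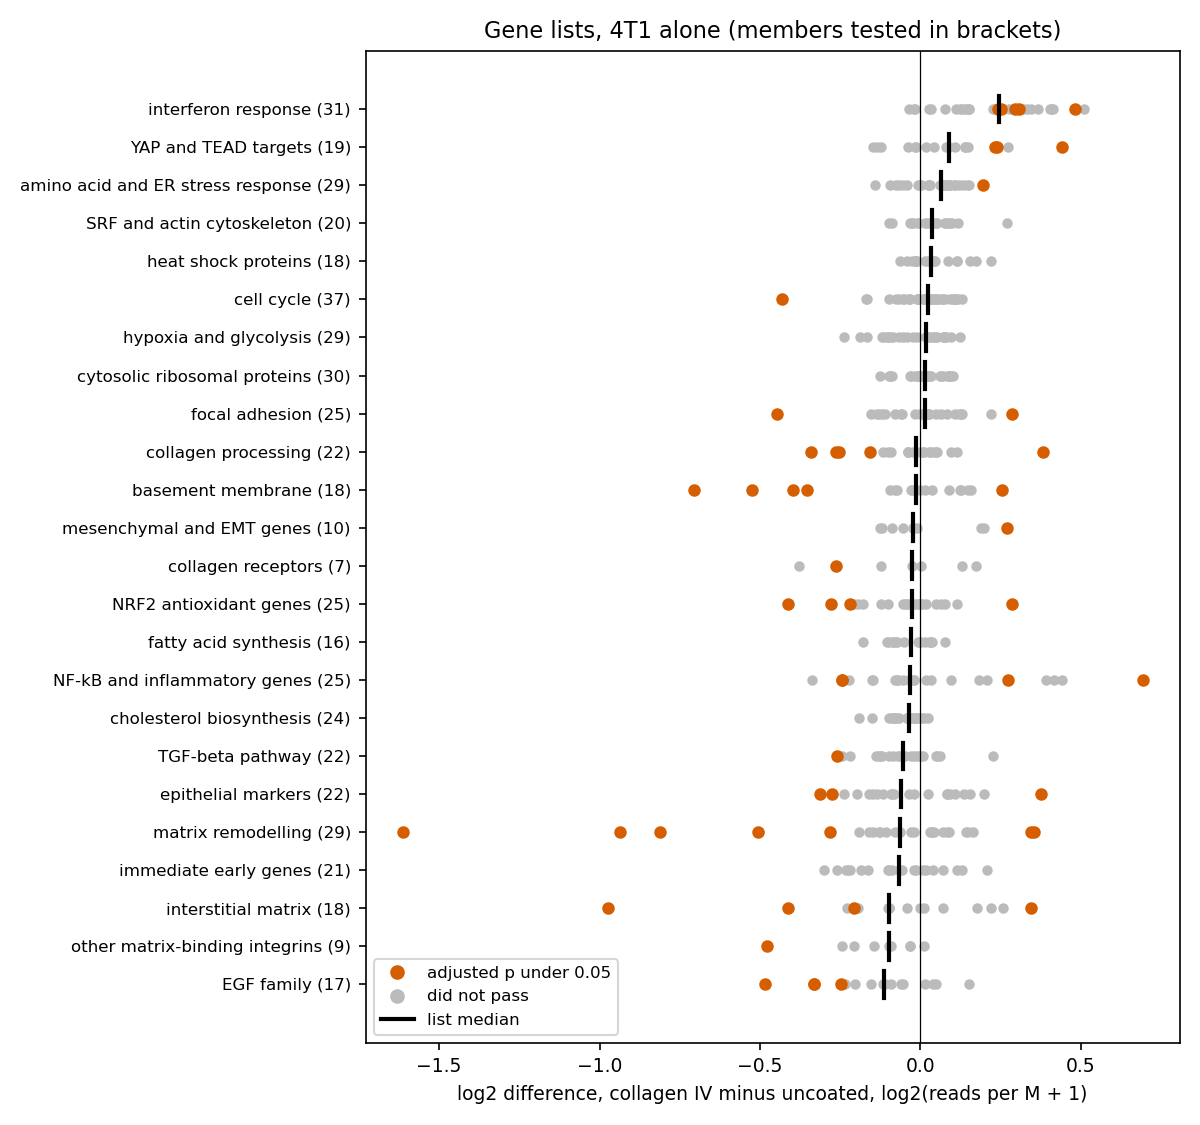
Log2 difference (collagen IV minus uncoated, log2 of reads per M plus 1) of each tested member of the gene lists, 1 row per list with the number of members tested in brackets. Members that passed an adjusted p of 0.05 are orange, the others grey, and a black bar marks the median of the list. The interferon response list has the highest median, 0.246, and matrix remodelling holds the largest single fall, −1.61 for Mmp3.

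The other coats were compared with collagen IV in the same fit. Against the mean of collagen I, fibronectin and vitronectin, 665 genes passed in limma's fit (4.83% of the genes tested), 226 (1.64%) higher and 439 (3.19%) lower on collagen IV. Against collagen I alone 1023 passed (7.43%), 325 (2.36%) higher and 698 (5.07%) lower, and against vitronectin 1109 (8.05%), 503 (3.65%) higher and 606 (4.4%) lower. Against fibronectin 1 gene passed (0.00726%), and 1251 genes (9.08%) had an unadjusted p under 0.05. These contrasts share the 4 collagen IV libraries with the contrast to uncoated plastic, so they do not stand as independent support for it. Collagen IV and collagen I libraries carried the same library tag in 4 of 4 experiments, fibronectin in 3 and vitronectin in 2. Without the experiment block 23, 105, 80 and 0 genes passed against the mean of the coats, collagen I, vitronectin and fibronectin, and without collagen IV replicate 3, 4 or 5 the count against the mean of the coats was 254, 190 or 282. The count was 591 or 541 against collagen I without replicate 3 or 4, and 624, 633 or 586 against vitronectin without replicate 3, 4 or 5. Against fibronectin 44 genes passed without collagen IV replicate 2 and 0 without replicate 3, 4 or 5.

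Nptx1 averaged 17.5 ± 4.5197 per M on collagen IV, 36.6 ± 6.92 on collagen I, 33.2 ± 7.01 on fibronectin, 66.5 ± 21.9 on vitronectin and 55.6 ± 11.8 on uncoated plastic. The level on collagen IV was below that on collagen I by 1.04 ± 0.17 (adjusted p = 0.0004), where all tags were equal, and below vitronectin by 1.83 ± 0.17 (2.08e-06). The difference of Nptx1 from fibronectin did not pass. The means of Mmp3 had the same order, with 14.2 ± 3.92 per M on collagen IV, 25.5 ± 3.74 on collagen I, 24.9 ± 4.91 on fibronectin, 50.5 ± 23.7 on vitronectin and 44.0 ± 8.35 on uncoated plastic. It was lower on collagen IV than on collagen I by 0.82 ± 0.23 (adjusted p = 0.0286), and the means on collagen I and fibronectin differed by less than their SDs. Against fibronectin the difference of Mmp3 was −0.82 ± 0.22 and did not pass (0.286).

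Lama3 averaged 15.9 ± 6.79 per M on collagen IV, 19.2 ± 6.66 on fibronectin, 28.1 ± 12.5 on vitronectin, 29.0 ± 11.99 on collagen I and 28.0 ± 10.2 on uncoated plastic. It was lower on collagen IV than on collagen I by 0.83 ± 0.089 (adjusted p = 2.9e-06) and than on vitronectin by 0.77 ± 0.089 (1.34e-05), while the difference from fibronectin was −0.19 ± 0.087 (0.535). Cdh17 averaged 3.73 ± 0.55 per M on collagen IV and 4.12 ± 0.447 on fibronectin, against 7.39 ± 0.766 on collagen I and 6.48 ± 1.42 on vitronectin. Pmp22 averaged 25.5 ± 10.1 per M on collagen IV, 17.4 ± 7.32 on fibronectin, 14.4 ± 5.76 on collagen I, 13.7 ± 3.19 on vitronectin and 13.8 ± 5.35 on uncoated plastic. It was higher on collagen IV than on collagen I by 0.78 ± 0.080 (adjusted p = 1.77e-06). Neither Cdh17 nor Pmp22 passed against fibronectin.

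Some named genes were chosen for having the smallest p between collagen IV and collagen I, so these differences are among the extremes of that contrast. Masp1 and Epha1, the gene of an ephrin receptor, were higher on collagen IV than on collagen I by 0.84 ± 0.059 and 0.82 ± 0.060 (adjusted p = 1.14e-08 and 2.08e-08). St3gal4, a sialyltransferase, was lower by 0.79 ± 0.055 (1.14e-08). Mmp14 averaged 133 ± 10.8 per M on collagen IV and 201 ± 15.4 on collagen I, lower by 0.59 ± 0.045 (3.09e-08), with −0.078 ± 0.044 against uncoated plastic. The gene that passed against fibronectin was Plscr2, a phospholipid scramblase named here after its values were seen, which averaged 55.1 ± 5.45 per M on collagen IV and 42.4 ± 4.5204 on fibronectin, higher by 0.32 ± 0.050 (adjusted p = 0.0298).

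**Figure D4:**
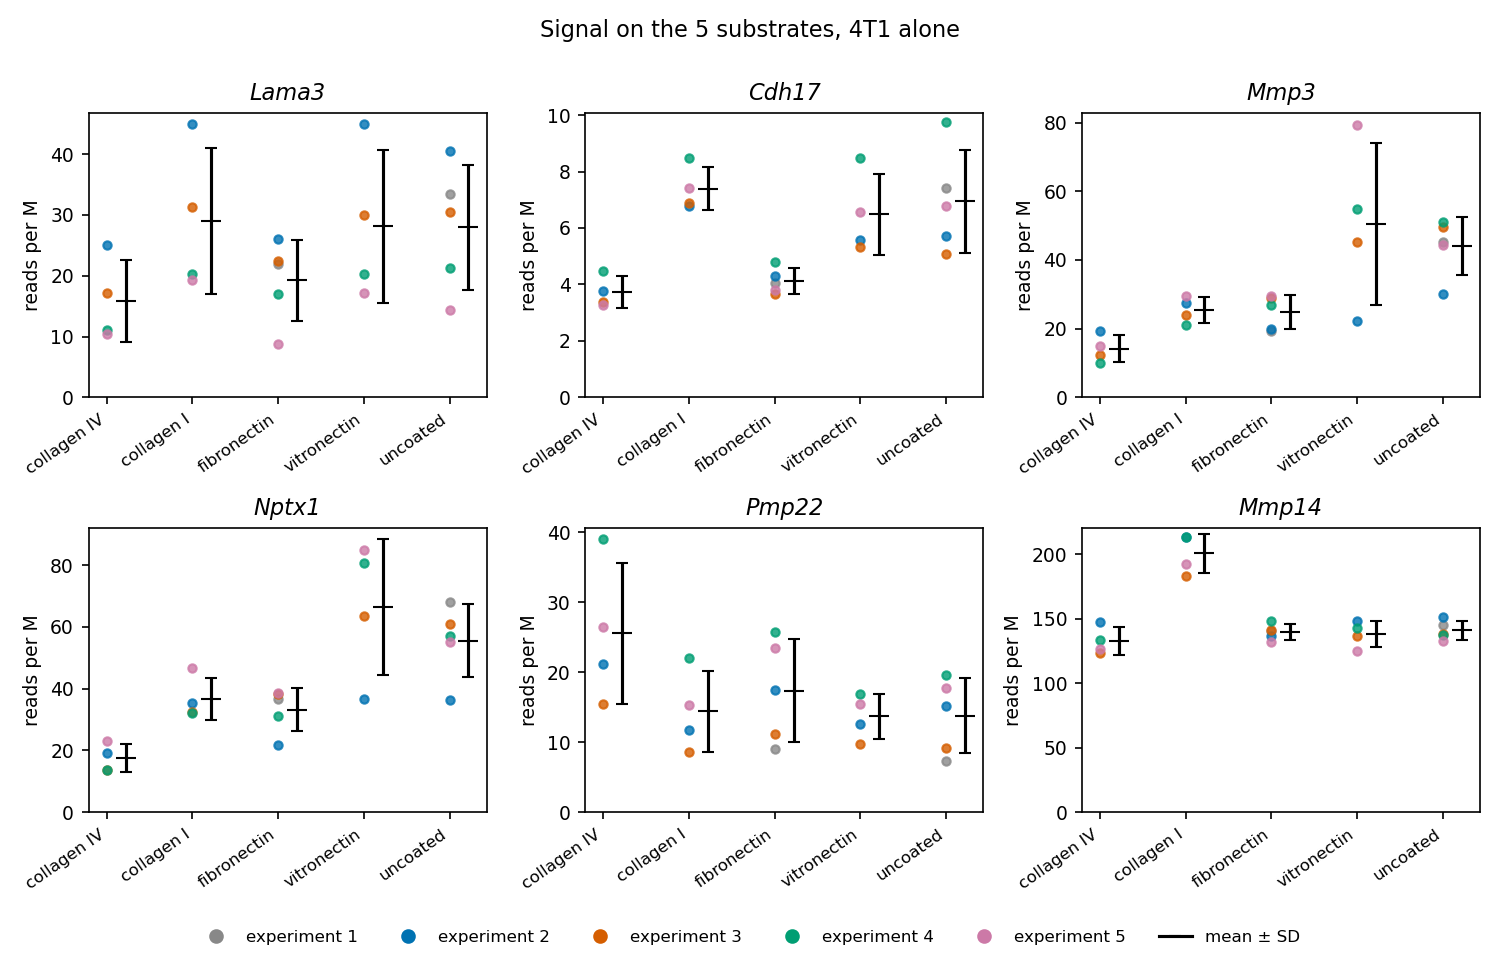
Signal in reads per M on the 5 substrates for 6 genes, with 1 point per library coloured by experiment and the mean ± SD beside each group. Mmp3 and Nptx1 have their lowest means on collagen IV and the next lowest on fibronectin and collagen I, and neither passed against fibronectin. The mean of Lama3 on collagen IV and on fibronectin lies below that on the other 3 substrates, and Mmp14 is highest on collagen I.

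The same coat contrast was made in the co-cultures, which are separate wells of the same experiments with T cells added: 4 libraries on collagen IV and 4 on uncoated plastic, of which experiments 2, 4 and 5 form pairs. In limma's fit to the 18 co-cultures 3 of 14486 genes passed (0.0207%), all lower on collagen IV, and 1893 had an unadjusted p under 0.05 (13.1%). Lama3 fell by 0.91 ± 0.12 and Lamb3 by 0.50 ± 0.069 (adjusted p = 0.0382 for both), with differences by experiment of −0.72, −1.24 and −0.73 for Lama3 and −0.29, −0.68 and −0.52 for Lamb3. Il18rap, a subunit of the interleukin 18 receptor, was the third, with a fall of 0.71 ± 0.10 (adjusted p = 0.0382) and of 0.40 ± 0.089 in 4T1 alone (adjusted p = 0.0187), the second a call lost without collagen IV replicate 4 or 5 or uncoated replicate 3 (adjusted p up to 0.104) and with the tag in the block (0.256). No gene passed in the co-cultures without experiment 4 or 5, without the experiment block or by edgeR, and 51 passed without experiment 2.

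Of the 218 genes that fell in 4T1 alone, 190 had a difference below 0 in co-culture, against 45.8% of all genes, and of the 76 that rose 62 had one above 0. Their medians in co-culture were −0.300 and 0.142, against 0.0218 over all genes. For the genes that fell the median by experiment was −0.0766, −0.565 and −0.323 in experiments 2, 4 and 5. In bulk RNA of 2 cell types, fewer 4T1 cells and less RNA per 4T1 cell cannot be told apart, and in experiment 4 the 2 T cell markers over the filter in 4T1 alone, Trac and Lck, had a median difference of 1.59, with −0.176 and 0.196 in experiments 2 and 5. The interferon response list had medians of 0.120, 1.31 and 0.0436 in experiments 2, 4 and 5 of the co-cultures. The part of the T cells in these values was not tested. In experiments 2 and 5 Mmp3 had differences of −0.57 and −1.82, Nptx1 −0.74 and −1.36, and Pmp22 0.55 and 0.67, the same sign as in 4T1 alone. No gene passed the test of the difference between the 2 coat effects in limma's fit to all 40 libraries (0 of 14701, with 2054 at an unadjusted p under 0.05, which is 14%).

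**Figure D5:**
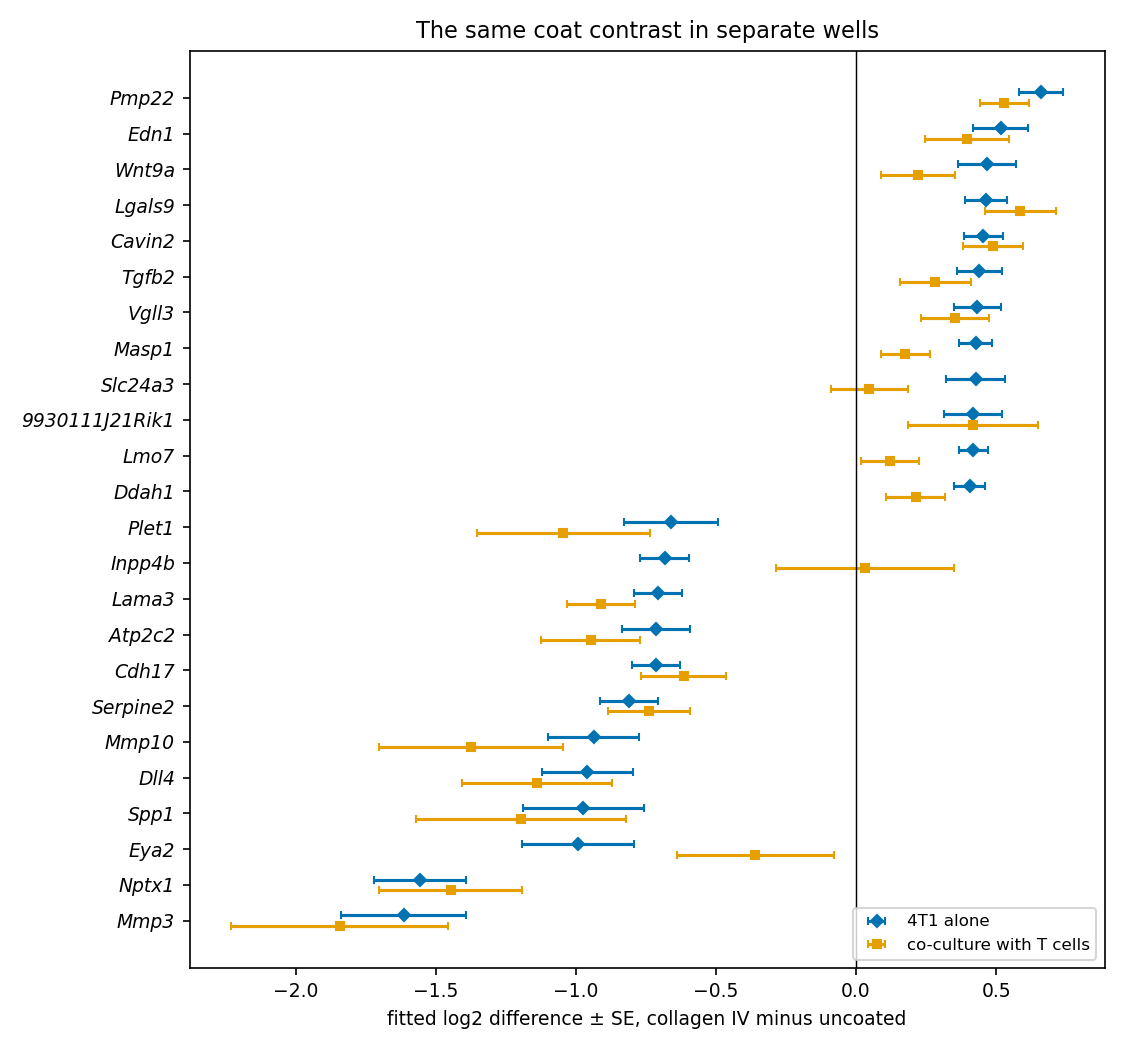
Fitted log2 difference ± SE (collagen IV minus uncoated) of the 24 named genes with the largest differences, in 4T1 alone (diamonds) and in co-culture with T cells (squares). Of the 24, 23 lie on the same side of 0 in both conditions, and Inpp4b lies at 0.032 in co-culture with an error bar across 0.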

How the data were processed

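RNA of 40 wells was sequenced as single-end reads. Per the submitters' processing notes, STAR 2.6, featureCounts and edgeR 3.31.7 were used with build mm10; options, annotation and strand setting are not given in the sources used here. The deposited signal is the authors' read count per gene over the library's size after scaling, counted in M reads: multiplied back, 100% of values were whole within 0.01, and columns summed to 957856 to 1.03995e+06. Of 21349 lines 1 duplicate was dropped, and 1 gene (Ldha) with a cell that is not a number was left out. The 22 libraries of 4T1 alone held 20.2 to 45.5 M reads and the 40 libraries 19.0 to 239.7 M. The 10 highest genes took 4.97% of reads.

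Genes at 1 per M or more in at least 3 libraries were fitted on the log2(value + 1) scale by limma (version 3.58.1, R version 4.3.3), with substrate and experiment as terms (13 residual degrees of freedom), and p-values were adjusted by Benjamini-Hochberg over all genes tested, at 0.05. Fold changes are on that log2 scale, which understates changes of low genes. Co-cultures (18) and the difference between conditions (40 libraries) were fitted the same way. edgeR 4.0.16 and DESeq2 1.42.0 on the recovered reads were alternatives. On simulated data of 13698 genes for collagen IV against uncoated plastic, the limma fit recovered 80% of genes changed 1.25-fold and 98% at 1.5-fold. It made 12 false calls among 201. The simulated libraries took each gene's real mean by experiment, so they shared the shifts between experiments. Counts were drawn for each gene on its own, and no library tag was simulated. Whether these rates hold for the real libraries was not tested.

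Libraries of the same experiment deviated together, with a median correlation of 0.607 over 41 pairs, against −0.161 over 152 pairs of different experiments (0.605 over the 4 collagen IV and uncoated pairs), so the experiment number, from the labels, was used as a block. No 2 libraries of a group agreed within sampling noise (chi-square per degree of freedom 10.5 to 56.4 over 16 pairs). Named genes were the 12 largest rises and 12 largest falls with the same sign in 4 of 4 pairs and a mean of 5 per M or more. Added were the 3 members of each of 29 lists with the smallest p, all collagen receptors and a few fixed genes. The 5 with the smallest p each came from the contrasts with the mean of the other coats, with collagen I, in co-culture and between conditions. Contrasts with fibronectin and vitronectin added none. Other list members are named after their values were seen. The lists held 676 entries, 627 in the table, 2 by older symbols. The comparison and the lists were chosen with earlier results of these data known. Promoter windows are RefSeq's, build GRCm38.p6, and coordinates are GENCODE M21 on GRCm38; windows of Nptx1, Cdh17, Ctgf and Thbs1 were not used here, and some results are not reported here. Alternatives were other pseudocounts, filters, normalization, tools and blocks, and leaving out each library or experiment.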

Additional observations from a re-analysis of the deposited data

Results flagged for a closer look

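In each of the 75 named genes that passed, the 4 collagen IV and the 5 uncoated libraries were looked at for a single library far from the others of its group by Dixon's criterion, which chance meets in about 1 of 20 groups. Of 150 groups, 4 held one, and each was a library of experiment 2. The uncoated library of experiment 2 was the lowest for Mmp3, at 30.0 per M, the highest for Itgb3, at 11.3 per M, and the highest for Plau, at 207 per M. The collagen IV library of experiment 2 was the highest for Dll4, at 7.77 per M. The falls of Mmp3 and Dll4 kept their calls without that library, and Itgb3 and Plau lost theirs without uncoated replicate 2.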

How the results depend on the processing

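The count of 294 genes passing between collagen IV and uncoated plastic lay between 223 and 394 with the 9 libraries alone, other pseudocounts, a stricter filter, quantile normalisation, edgeR and DESeq2. It was 185 with no filter on low values, 76 in the fit to all 40 libraries, 74 with experiment and library tag as block, and 4 without the replicate block. Lower genes were 58.1% of calls with the tag in the block and 74.1% without it. Leaving out 1 library gave 87 to 439 genes and leaving out 1 experiment 18 to 345. Each of the 75 kept its sign in every setting that tested it (25 settings, of which the stricter filter tested 71 of the 75), and the tag block kept 25 of the 75 calls. edgeR kept 65 of the 75, and DESeq2 and quantile normalisation 72 each. edgeR lost Areg, Cd68, Csf3, Cyr61, Irgm1, Itgb3, Loxl3, Plau, Plet1 and Srxn1, and DESeq2 lost Areg, Cd68 and Plet1. Quantile normalisation lost Areg, Irgm1 and Plau. Against the other coats, the count without the replicate block was 23 of 665 for their mean, 105 of 1023 for collagen I, 0 of 1 for fibronectin and 80 of 1109 for vitronectin. With the tag in the block it was 0 for fibronectin and 500 for vitronectin. Leaving out 1 collagen IV library gave 190 to 894 for the mean, 541 to 1226 for collagen I, 0 to 44 for fibronectin and 586 to 1282 for vitronectin. In co-culture, 3 genes passed with the block, 0 without the replicate block, 0 by edgeR and 0 to 51 with 1 experiment left out. The cause of these changes was not tested. Against a floor of 3 reads (0.0683 to 0.148 per M), differences of genes near 1 per M rest on few reads.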

Other observations

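Of 25 NRF2 antioxidant genes tested, 3 fell, 1 rose and 21 did not pass in limma's fit (median −0.0278). Over all genes tested, 0.552% rose and 1.58% fell. Fth1, the heavy chain of the iron store ferritin, had 1104, 1035, 956 and 926 per M on collagen IV, against 1470.4, 1240.0, 1304, 1176 and 1106 per M on uncoated plastic, without overlap. It fell by 0.28 ± 0.057 (adjusted p = 0.0104), a call lost without collagen IV replicate 3 or 4 (adjusted p up to 0.0762) and with the tag in the block (0.224). Gsta4, a glutathione transferase, fell by 0.41 ± 0.089 and Srxn1, sulfiredoxin, by 0.22 ± 0.057 (adjusted p = 0.0156 and 0.0483). Srxn1 was not called by edgeR. Hmox1, heme oxygenase 1, had 33.8, 26.5, 19.4 and 19.1 per M on collagen IV, against 25.5, 28.7, 20.0, 15.4 and 15.2 per M on uncoated plastic, and rose by 0.28 ± 0.065 (adjusted p = 0.0207). Gsta4 lost its call without collagen IV replicate 3, 4 or 5 or uncoated replicate 3 or 4 (adjusted p up to 0.109), Srxn1 without collagen IV replicate 3 or 4 or uncoated replicate 1, 2, 3 or 4 (adjusted p up to 0.297) and Hmox1 without collagen IV replicate 3, 4 or 5 or uncoated replicate 2, 3 or 4 (adjusted p up to 0.119). With the tag in the block no gene of the list passed, with an adjusted p of 0.196 for Gsta4, 0.245 for Srxn1 and 0.209 for Hmox1.

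Cd68, the myeloid marker that passed, had 3.05, 1.91, 1.97 and 2.94 per M on collagen IV, against 3.03, 3.58, 3.05, 2.84 and 4.03 per M on uncoated plastic. It fell by 0.34 ± 0.084 (adjusted p = 0.0368), a call lost without collagen IV replicate 3, 4 or 5 or uncoated replicate 1, 2, 3, 4 or 5 (adjusted p up to 0.202), with edgeR, with DESeq2 and with the tag in the block (0.432).

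Of the 76 genes that rose, 6 are predicted genes with nearly the same values in every library (Gm9343, Gm21032, Gm21033, Gm21034, Gm21035 and Gm21036), named here after their values were seen, and 70 rose without them. Gm9343 had 1.39, 3.36, 1.33 and 0.147 per M on collagen IV, against 0.515, 0.0259, 0.431, 0.118 and 0.0480 per M on uncoated plastic, a difference of 1.03 (adjusted p = 0.0337, and 0.169 with the tag in the block). Reads of such near-identical rows may be shared between them, so they do not count as 6 separate genes.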
